A study of Homo sapiens with 4 samples.

Results

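MEIS peaks that were called in only one of the replicates were taken from 2 MEIS ChIP-seq libraries of human neural stem cells. A peak belonged to this set when its own −log10 p was at least 5 and it overlapped, by even 1 bp, no peak at all in the list of the other replicate. Replicate 1 held 2865 such peaks among 17246 peaks of that strength (16.6%), and replicate 2 held 7042 among 22218 (31.7%). The full lists held 36796 and 47449 peaks, and the other 14381 and 15176 peaks of that strength, which did overlap a peak of the other replicate, are called shared below. The peaks were selected on the −log10 p and on overlap, so strength, fold enrichment and width describe them and were not tested. The 2 replicates are kept apart throughout.

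The MEIS proteins belong to the three-amino-acid-loop-extension (TALE) class of homeodomain factors. They bind a short core, TGACAG, alone or next to PBX proteins on a composite site. PBX proteins are their partners, and PKNOX proteins are their relatives. In the developing nervous system they act in progenitors and in the differentiation of neurons, and MEIS1 is a risk gene of restless legs syndrome. Binding sites of such factors lie largely in enhancers far from genes, while CpG islands mark the promoters of many housekeeping and developmental genes.

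The culture was a commercial line of human neural stem cells (hNSC), grown in serum-free medium and not treated or edited for this experiment. Chromatin was precipitated with 2 antibodies mixed, K830 against the MEIS1A and MEIS2A isoforms and K844 against MEIS1. Binding of MEIS1 cannot be told from that of MEIS2. The series holds 2 MEIS ChIP samples and 2 Input samples of sheared, unprecipitated chromatin, and Input enters only through the fold enrichment and p-value of each peak. The study's methods speak of 2 batches of cells handled side by side, and the labels do not tie a batch to a replicate. The read depth of the libraries is unknown, so a peak missing from one list is not shown to be unbound there.

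What a strong one-replicate peak with the MEIS core looks like is shown first, because the core is the sequence the antibodies' targets are known to bind. The lines below give 60 bp of the GRCh37 reference around the TGACAG nearest to the summit, with that core in capitals, for the strongest peaks with TGACAG in replicate 1 and then in replicate 2. Each is named by the protein-coding gene with the nearest canonical transcription start site (TSS). The peaks near SPIDR and UNC5D, which also rank among the 5 strongest with TGACAG in replicate 1, are described further on without sequence, and NBEA and KLHL1, next in rank, stand in their place.
FGFR3, chr4:1796873-1796932, plus strand: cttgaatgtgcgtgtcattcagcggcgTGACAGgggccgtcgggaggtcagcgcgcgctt
KDR, chr4:55946874-55946933, minus strand: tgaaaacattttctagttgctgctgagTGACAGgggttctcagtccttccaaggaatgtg
LRRC4C, chr11:40946709-40946768, minus strand: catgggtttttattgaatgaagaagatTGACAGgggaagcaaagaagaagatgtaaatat
NBEA, chr13:35710629-35710688, plus strand: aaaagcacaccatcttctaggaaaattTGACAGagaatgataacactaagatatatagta
KLHL1, chr13:69808516-69808575, minus strand: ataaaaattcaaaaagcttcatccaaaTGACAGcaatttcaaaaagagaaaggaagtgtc
AOPEP, chr9:97685873-97685932, plus strand: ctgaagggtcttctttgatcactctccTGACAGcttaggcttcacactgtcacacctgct
SPATA13, chr13:24652700-24652759, plus strand: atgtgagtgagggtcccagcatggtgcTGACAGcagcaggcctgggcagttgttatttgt
STN1, chr10:105655239-105655298, minus strand: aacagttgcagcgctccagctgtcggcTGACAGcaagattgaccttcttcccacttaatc
TMPRSS15, chr21:20793045-20793104, minus strand: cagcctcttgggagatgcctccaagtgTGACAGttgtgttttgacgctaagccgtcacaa
ALCAM, chr3:104804379-104804438, minus strand: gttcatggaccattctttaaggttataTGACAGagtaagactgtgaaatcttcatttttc

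The replicate 1 sequence at FGFR3, a fibroblast growth factor receptor gene, lies in intron 2 in GC-rich DNA, 109 bp from its summit. At KDR, which encodes a receptor for vascular endothelial growth factor, the core lay 3 bp from the summit in intron 29. In replicate 2 the core lay 18 bp from the summit of a peak in intron 5 of AOPEP and 8 bp from that of a peak in intron 7 of STN1, a gene of telomere maintenance. All 10 regions hold the full core because they were chosen for it. The peak at KDR lay 790 bp from a peak of the other replicate.

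One-replicate peaks were weak peaks for the most part. In replicate 1 the median −log10 p of members was 6.22 and that of shared peaks 12.1, and the pair of medians in replicate 2 was 6.82 and 13.7. The authors' fold enrichment over input at the summit had a median of 2.78 in replicate 1 (lowest 1.24, highest 6.44) against 3.69 in shared peaks, and of 3.90 in replicate 2 (lowest 1.95, highest 24.5) against 5.83. Both sets had a median width of 554 bp, and shared peaks had 756 bp in replicate 1 and 786.5 bp in replicate 2. The fold distributions of members and shared peaks overlapped, and the lowest folds of all were in shared peaks, 1.168 in replicate 1 and 1.253 in replicate 2.

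**Figure D1:**
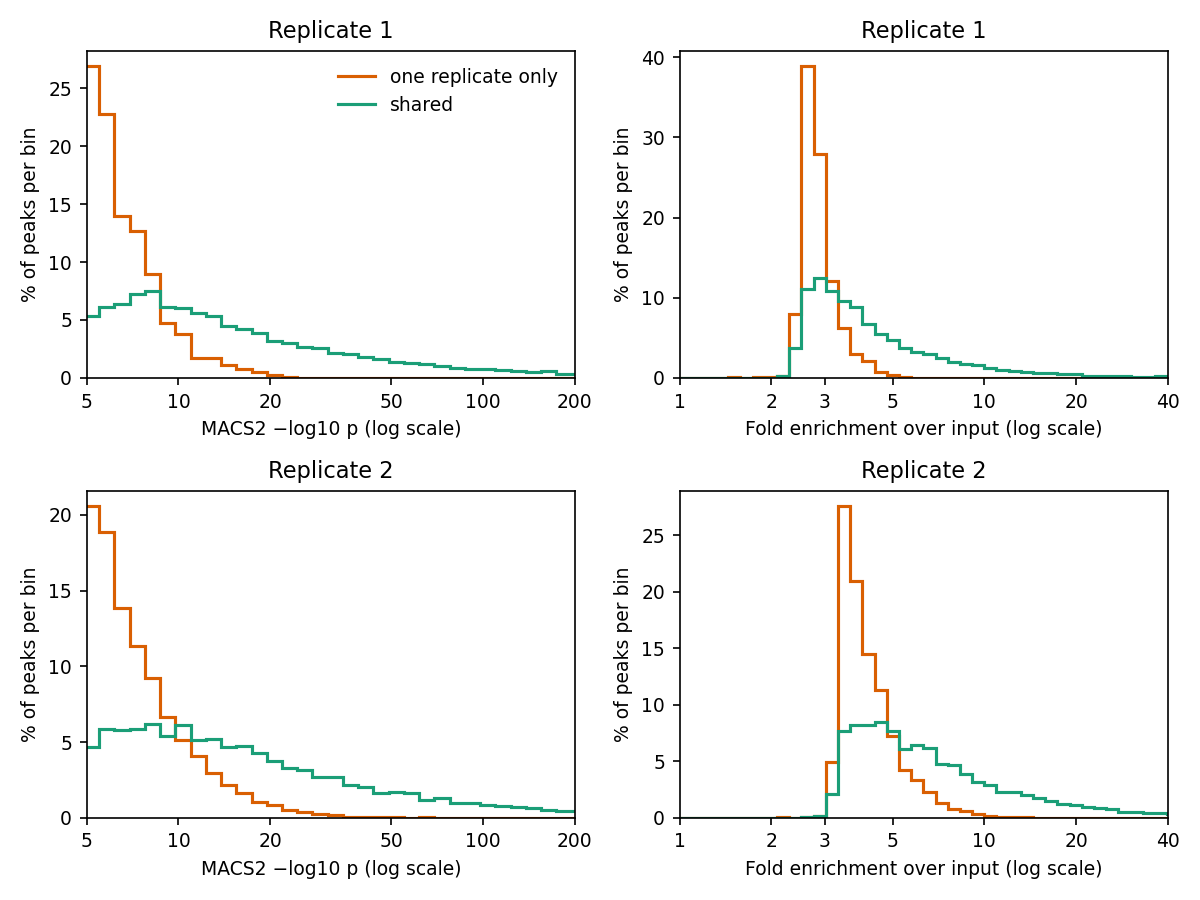
Share of peaks per bin (vertical axis, %) by MACS2 −log10 p (left) and by fold enrichment over input at the summit (right), both on log axes, for replicate 1 (top) and replicate 2 (bottom); orange lines are peaks called in one replicate only and green lines are shared peaks, which also reach values beyond the right edge. The one-replicate peaks crowd at the left, with medians of 2.78 and 3.90 in fold, and few reach the range where most strong shared peaks lie.

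The share of peaks that stood alone fell as strength rose. In replicate 1 it was 47.4% of 2795 peaks with a −log10 p of 5 to 6, 30.8% at 6 to 7, 19.4% at 7 to 10, 5.53% at 10 to 20 and 0.204% at 20 and above, where 9 of 4419 peaks remained. In replicate 2 it was 64.3% of 3545 peaks, then 54.5%, 41.5%, 19.9% and 2.68%, which was 147 of 5479 peaks. The threshold cuts a continuous range. With a −log10 p of 4.5 to 5, just outside, 59.7% of 1915 peaks in replicate 1 and 75.2% of 2790 in replicate 2 overlapped no peak of the other list, and with 5 to 5.5, just inside, 49.97% of 1541 and 67.2% of 2156 did so. The members nearest to it in replicate 1 lay in intron 1 of SHROOM3, a regulator of cell shape, and 161 kb downstream of OLFM4. Another lay in intron 20 of ERBB4, a neuregulin receptor gene, and each had a −log10 p of 5.01 and a fold of 2.33. The first 3 in replicate 2 lay in intron 1 of HBP1, 643 kb downstream of PCDH17 and in intron 17 of AP2B1. Each had a −log10 p of 5.002 and a fold of 3.37. The peaks just below had KBTBD11, EPB41L3 and BTG1 as nearest genes in replicate 1, up to 308 kb away, with folds of 2.16 to 2.52. In replicate 2 they had MACC1, MYCN and CCSER2, up to 824 kb away, with folds of 3.25 to 3.36.

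Near the threshold, members and shared peaks had close median folds. At a −log10 p of 5 to 6 the median fold was 2.62 in members and 2.57 in shared peaks of replicate 1, and 3.48 and 3.43 in replicate 2. Members were narrower there, at 519 bp against 559 bp and at 505 bp against 553 bp. At 20 and above the median fold was 5.33 in the 9 members and 7.12 in shared peaks of replicate 1, and 8.77 and 11.6 in replicate 2.

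Most members had no peak of the other replicate within 10 kb. These distances were not set against those of other sites. A peak of the other replicate lay within 1 kb of 184 members (6.42%) in replicate 1 and 335 (4.76%) in replicate 2, and within 10 kb of 41.1% and 33.7%. The median distance was 14.1 kb and 18.5 kb, and 4.503% and 6.55% had none within 100 kb. The distances so far run between peak edges. Between summits, a member of the other replicate lay within 10 kb of 7.19% of replicate 1 members and 2.98% of replicate 2 members. The authors' list of reproducible sites needs a peak in both replicates, so the selection itself keeps the members out of it (0 overlaps), and 36.0% and 34.1% of the shared peaks belonged to it. Of the shared peaks themselves, 9.04% in replicate 1 and 13.9% in replicate 2 overlapped partners that were all weaker than a −log10 p of 5.

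The sequence of the members was next compared with that of shared peaks, since sequence and annotation had no part in the selection. An exception among the features below is a neighbouring peak of the same replicate within 10 kb. It was looked for among peaks that passed the same threshold. Each peak was represented by a 500 bp window centred on its summit. For 26 features of sequence and position, the odds of a peak having the feature were compared between members and shared peaks by logistic (binomial) regression within each replicate, with Benjamini-Hochberg adjustment over 52 tests. At an adjusted p under 0.05, 17 of 26 features differed in replicate 1 (65.4%), 9 of them more frequent in members, and 14 of 26 in replicate 2 (53.8%), of which 1 was more frequent. Of the 12 features that differed in both replicates, 6 were less frequent in the members of both, the neighbouring peak among them. The other 6 went in opposite directions. Peaks are not replicates of a culture, so these p-values describe the peak lists of these libraries only.

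The MEIS core was less frequent in one-replicate peaks of both libraries. Over all peaks of that strength, TGACAG was found on either strand in 54.1% of the windows of replicate 1 and in 53.3% of those of replicate 2, and in 27.6% of 28353 windows of 500 bp placed every 100 kb along the genome. In replicate 1, 1404 of 2865 members had it (49.0%, Wilson 95% interval 47.2 to 50.8) against 55.1% of shared peaks, an odds ratio of 0.783 (n = 17246 peaks, 95% interval 0.722 to 0.848, adjusted p = 9.6e-09). In replicate 2, 3508 of 7042 members had it (49.8%, 48.6 to 51.0) against 54.9%, an odds ratio of 0.816 (n = 22218 peaks, 0.771 to 0.864, adjusted p = 1.3e-11). The direct comparison of the 2 sets of members by the same binomial regression gave an odds ratio of 0.968 (0.888 to 1.06, adjusted p = 0.575), so no difference between them was detectable at this number of peaks.

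Where members had the core, it lay further from the summit. Its centre was within 50 bp of the summit in 55.1% of members with TGACAG in replicate 1 and in 57.6% in replicate 2, against 63.5% and 63.2% of shared peaks. The median distance was 39 bp and 36 bp in members and 22 bp and 25 bp in shared peaks. The summit position was not part of the selection, and this difference was not tested. Members were weaker than shared peaks, and these distances were not compared at equal strength.

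The difference in TGACAG was smaller once strength was taken in. With the log10 of the −log10 p as a covariate in the binomial fit, the odds ratio was 0.877 in replicate 1 (adjusted p = 0.0054) and 0.886 in replicate 2 (adjusted p = 0.00043). Among peaks with a −log10 p of 5 to 6, 46.7% of members and 50.2% of shared peaks of replicate 1 had the core, and 48.9% and 48.5% in replicate 2. At 20 and above the shares were 46.3% of 147 members and 57.7% of shared peaks in replicate 2.

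The other features that were less frequent in the members of both replicates were 4 consensuses of transcription factors and a neighbouring peak. The PBX-MEIS composite, which contains the core, was found in 2.37% of members against 4.04% of shared peaks in replicate 1 (odds ratio 0.577) and in 2.58% against 3.90% in replicate 2 (0.654), and in 0.494% of the spaced genome windows. GGAATG, bound by TEAD factors of the Hippo pathway, was found in 33.3% against 38.1% and in 33.8% against 38.2%. CATTGT, bound by SOX factors such as SOX2, which maintains neural stem cells, was found in 31.9% against 36.9% and in 33.6% against 36.4%. The E-box CAGCTG, bound by basic helix-loop-helix factors, was found in 29.3% against 33.4% and in 29.6% against 33.5%. In the spaced windows these 3 were found in 24.2%, 27.8% and 15.97%. Another peak of the same replicate lay within 10 kb of fewer members than shared peaks, at 20.8% against 24.6% and 24.9% against 29.7%. At a −log10 p of at least 10 that direction turned in replicate 1, with 25.9% against 25.5% (odds ratio 1.02). The neighbouring peak comes from the thresholded list itself, so its shares are a description and its test is not independent of the selection. With strength as a covariate of the binomial fit, 4 of these 6 features remained less frequent in both replicates at an adjusted p under 0.05, and SOX in replicate 2 (odds ratio 0.961, adjusted p = 0.318) and the neighbouring peak in replicate 1 (0.893, adjusted p = 0.0516) did not.

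**Figure D2:**
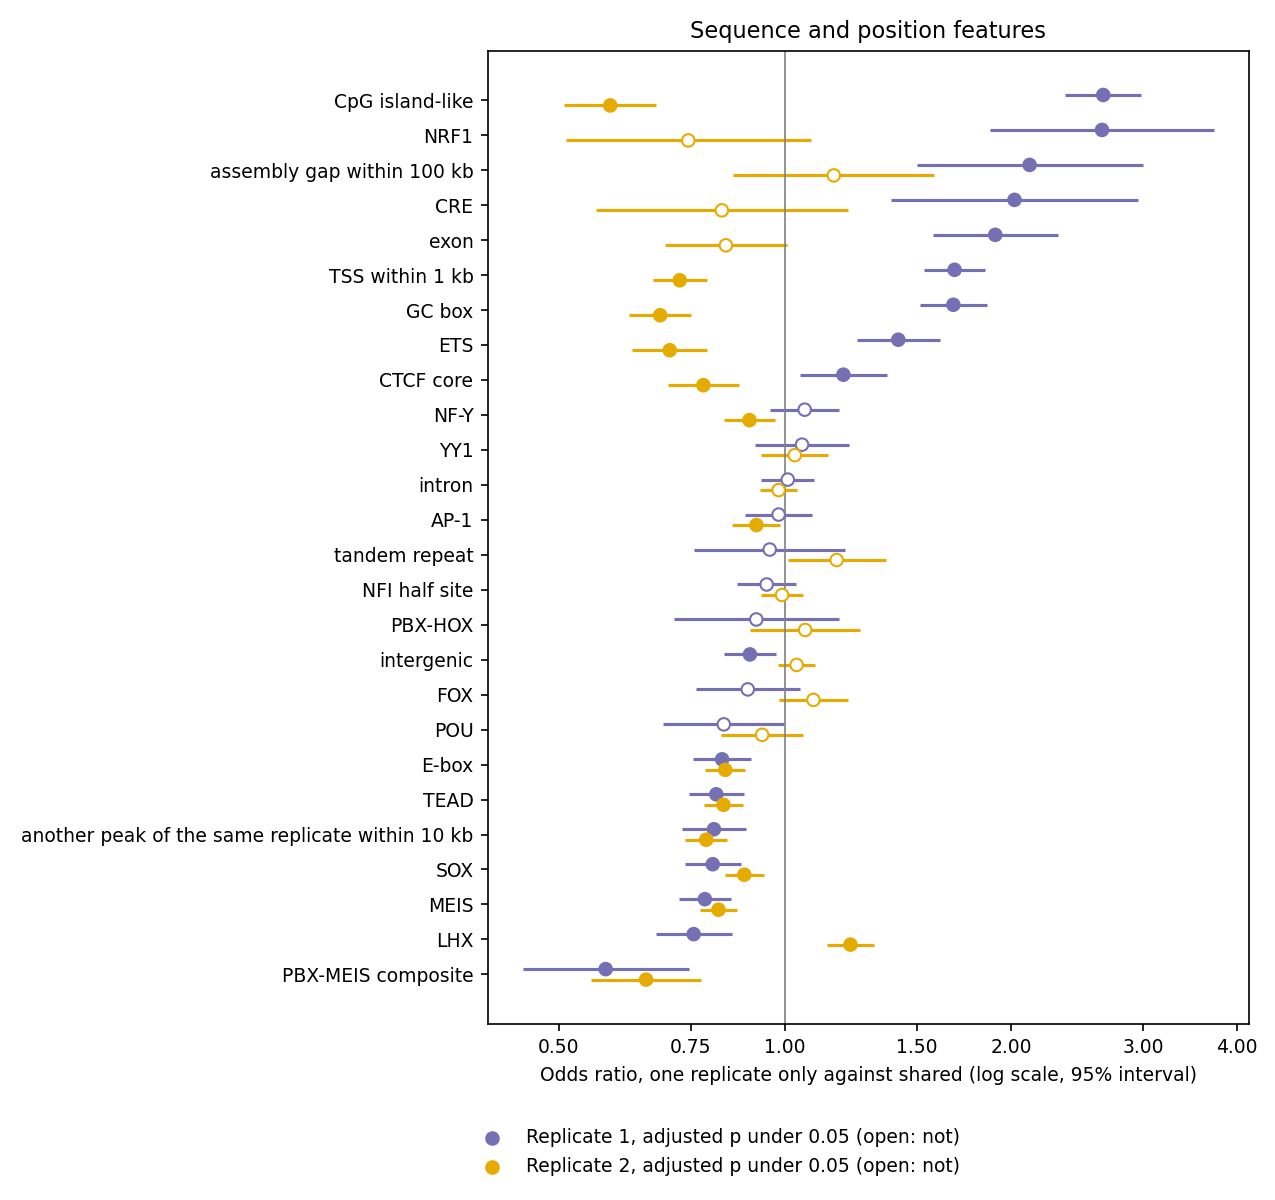
Odds ratio of each of 26 features in peaks called in one replicate only against shared peaks (horizontal log axis, bars 95% intervals), in purple for replicate 1 and yellow for replicate 2; filled points had an adjusted p under 0.05. The points of both replicates lie together left of 1 for MEIS, PBX-MEIS composite, TEAD, SOX and E-box, and on opposite sides for CpG island-like sequence (2.65 and 0.586), TSS within 1 kb (1.68 and 0.725) and LHX (0.756 and 1.22).

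The sets parted in GC content and promoter position. In replicate 1 the members were richer in GC than shared peaks, with a median of 44.2% against 42.6%, and in replicate 2 they were poorer, with 41.4% against 42.6%. The spaced genome windows had a median of 40%. Among replicate 1 peaks, the share called in that replicate only was 17.6% at a GC content of 20 to 35%, 13.3% at 40 to 45% and 33.2% at 60 to 80%. Among replicate 2 peaks it went the other way without a turn, from 41.1% at 20 to 35% to 17.7% at 60 to 80%.

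**Figure D3:**
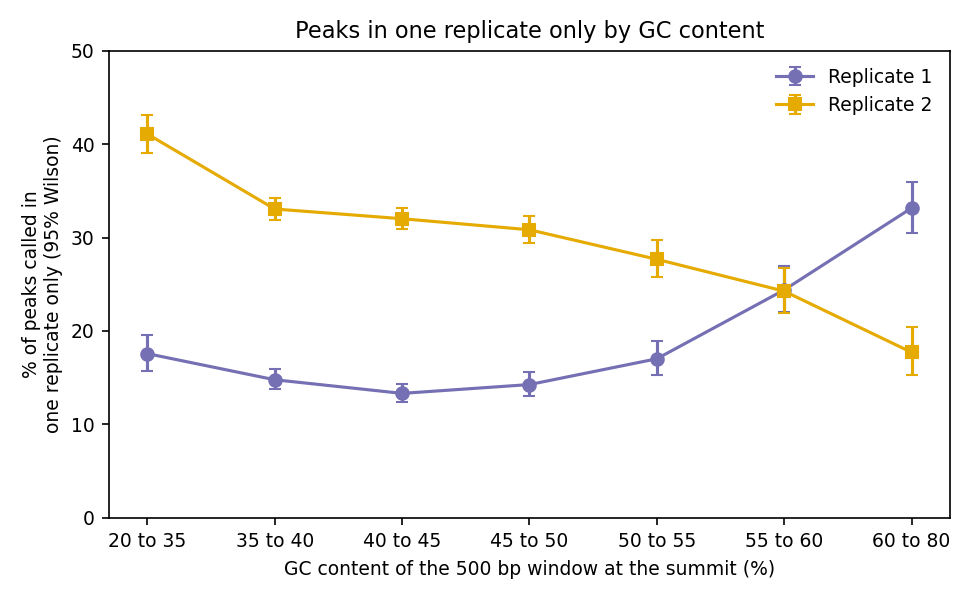
Among peaks as strong as the threshold asks, the share that were called in one replicate only (vertical axis, %, bars 95% Wilson intervals) by GC content of the 500 bp window at the summit (horizontal axis), for replicate 1 (purple circles) and replicate 2 (yellow squares). The lines cross at 55 to 60% GC, where the shares were 24.4% and 24.3%.

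CpG island-like windows, with at least 50% GC and a CpG count of at least 0.6 of that expected from the bases, made the clearest contrast. They were 16.8% of replicate 1 members (480 peaks, interval 15.4 to 18.2) against 7.05% of shared peaks, a binomial odds ratio of 2.65 (2.36 to 2.98, adjusted p = 2.5e-58). In replicate 2 they were 3.62% of members (255 peaks, interval 3.21 to 4.08) against 6.03%, a binomial odds ratio of 0.586 (0.508 to 0.675, adjusted p = 1.2e-12). They were 1.13% of the spaced genome windows. Between the members of the 2 replicates the binomial odds ratio was 5.36 (4.57 to 6.28, adjusted p = 8.4e-94).

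CpG island-like peaks, members or shared, lay mostly at promoters. Of the 480 members in replicate 1, 91.7% were within 1 kb of an annotated TSS against 88.7% of the CpG island-like shared peaks, and 42.9% held TGACAG, against 50.1%. In replicate 2, 89.8% of the 255 members and 88.0% of such shared peaks were within 1 kb of a TSS, and 42.7% of these members held TGACAG, against 50.3%. Counted over all members, 26.1% of replicate 1 members lay within 1 kb of a TSS against 17.4% of shared peaks (binomial odds ratio 1.68, 1.53 to 1.85, adjusted p = 4.4e-26), and 12.6% of replicate 2 members against 16.6% (0.725, 0.667 to 0.787, adjusted p = 1.7e-13). With canonical TSS of protein-coding genes alone the shares were 17.2% against 8.18% and 4.97% against 7.49%. The median distance to such a TSS was 43.4 kb in replicate 1 members and 81.1 kb in shared peaks, and 91.8 kb and 83.0 kb in replicate 2. Exons held 5.27% of replicate 1 members against 2.84% (binomial odds ratio 1.91), and the share in replicate 2 was 2.22% against 2.64% (adjusted p = 0.0894).

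The CpG-rich sequence is shown for strong CpG island-like members at a TSS whose 120 bp at the summit touched no annotated exon, with each CG in capitals, CNDP2 and STX5 from replicate 1 and GLIS3 from replicate 2. These were chosen after their values were seen.
CNDP2, chr18:72163282-72163401, plus strand: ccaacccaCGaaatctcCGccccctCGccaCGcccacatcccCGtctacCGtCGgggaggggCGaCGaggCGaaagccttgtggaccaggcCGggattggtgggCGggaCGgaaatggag
STX5, chr11:62599059-62599178, plus strand: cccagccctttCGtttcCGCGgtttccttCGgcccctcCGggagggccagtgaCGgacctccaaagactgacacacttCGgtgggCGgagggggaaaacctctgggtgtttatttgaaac
GLIS3, chr9:4298503-4298622, plus strand: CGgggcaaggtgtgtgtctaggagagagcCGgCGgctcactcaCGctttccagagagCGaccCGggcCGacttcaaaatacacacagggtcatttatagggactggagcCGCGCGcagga

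The 120 bp at CNDP2, a peptidase gene, held 13 CG pairs, those at STX5, a gene of Golgi transport, 8 and those at GLIS3 10. The CNDP2 peak had a fold of 4.90 and a −log10 p of 18.1, and the GLIS3 peak a fold of 6.88 and a −log10 p of 15.8. Other strong members of this kind, chosen in the same way, stood in replicate 1 90 bp upstream of the TSS of NMD3, a factor of ribosome export (fold 5.01), 55 bp upstream of PKN2, a protein kinase (4.82), 163 bp upstream of RHOB, a small GTPase (4.41), and 45 bp upstream of BCAS2, a splicing factor (4.30). In replicate 2 they stood 117 bp upstream of CCAR1 (fold 7.35), 406 bp upstream of NEMP2 (7.05) and 196 bp upstream of TM7SF2, which acts in sterol synthesis (7.16).

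Some consensuses rich in G and C also went opposite ways. GGGCGG, the GC box of SP factors, was found in 20.9% of replicate 1 members against 13.7% of shared peaks (odds ratio 1.68) and in 9.07% against 12.8% in replicate 2 (0.682). CCGGAA, bound by ETS factors, was found in 11.7% against 8.55% (1.42) and in 5.82% against 8.09% (0.703). AGGGGGC, a core of CTCF, which organises chromatin loops, was found in 10.5% against 8.94% (1.196) and in 6.93% against 8.72% (0.779). GCATGCGC, bound by NRF1, was found in 1.75% against 0.668% in replicate 1 (2.64), and TGACGTCA, bound by CREB, in 1.33% against 0.661% (2.02), and neither passed the binomial test in replicate 2 (adjusted p = 0.176 and 0.404). In the spaced windows the GC box, ETS and CTCF letters were found in 6.497%, 3.14% and 4.05%. CCAATC, bound by NF-Y, and AAGATGG, bound by YY1, which also act at promoters, were found in 17.3% against 16.5% and in 8.52% against 8.11% in replicate 1, and neither passed the binomial test there (adjusted p = 0.342 and 0.548). In replicate 2 CCAATC was less frequent in members, at 14.7% against 16.1% (binomial odds ratio 0.897, adjusted p = 0.0132). AAGATGG was found there in 8.31% against 8.08% (binomial test, adjusted p = 0.609). Of 18 consensuses in all, 5 were more and 6 less frequent in replicate 1 members, and 1 was more and 10 less frequent in replicate 2 members.

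The one consensus that was more frequent in replicate 2 members was TAATTA, the core of LHX2, a forebrain regulator, and of many other homeodomain proteins. It was found in 20.9% of replicate 2 members against 17.8% of shared peaks (binomial odds ratio 1.22, 1.14 to 1.31, adjusted p = 1e-07) and in 13.3% of replicate 1 members against 16.9% (0.756, 0.673 to 0.849, adjusted p = 6.4e-06). The spaced windows held it in 20.001%. Further than 5 kb from any TSS the odds ratios of replicates 2 and 1 were 1.1997 and 0.809, and both had an adjusted p under 0.05. The strongest members with TAATTA are shown with these letters in capitals, near TANK and CREBBP in replicate 1 and near NBAS and SPATA13 in replicate 2, and were also chosen after their values were seen. The CREBBP and SPATA13 peaks hold TGACAG too, 25 bp and 86 bp from the summit, and the SPATA13 peak is the one shown above with that core.
TANK, chr2:161841580-161841639, plus strand: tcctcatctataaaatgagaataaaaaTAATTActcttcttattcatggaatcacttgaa
CREBBP, chr16:3989601-3989660, plus strand: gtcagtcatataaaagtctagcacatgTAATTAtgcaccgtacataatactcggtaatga
NBAS, chr2:15278941-15279000, plus strand: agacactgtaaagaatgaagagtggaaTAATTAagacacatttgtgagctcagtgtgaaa
SPATA13, chr13:24652587-24652646, plus strand: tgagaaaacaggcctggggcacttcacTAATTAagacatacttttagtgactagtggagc

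All hexamers were then ranked by the ratio of their share in members to that in shared peaks, as a description. In replicate 1 CGCGCG came first of 2080 (5.17% of members and 2.15% of shared peaks, ratio 2.40), and in replicate 2 it came last (1.04% and 1.89%, ratio 0.548). Replicate 2 began with GTATAC (ratio 1.26), and TAATTA stood at rank 14 there and at rank 2073 in replicate 1. TGACAG stood at rank 1860 and at rank 1580, in the lower part of both lists.

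GC content moved with most of the opposite results. With the GC content of the window as a covariate, only TAATTA and TSS position among 5 of these 6 features still pointed opposite ways (CpG island-like sequence is made of GC and was left out). For TSS within 1 kb the binomial odds ratios became 1.1996 (adjusted p = 0.00499) and 0.890 (adjusted p = 0.0232), for TAATTA 0.839 (0.0107) and 1.09 (0.0505), for the GC box 0.927 and 0.941, and for CTCF 0.797 and 0.958. Between the 2 sets of members, 14 of 26 features differed without the covariate and 8 of 25 with it. The 6 features less frequent in both remained so with it, TGACAG at 0.766 and 0.831. The cause of the GC difference between the libraries was not tested.

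The contrast also depended on how strong the peaks were. Among replicate 1 members the CpG island-like share rose from 14.1% at a −log10 p of 5 to 6 to 25.6% at 10 to 20, while in shared peaks it was 9.45% and 7.57%. The share within 1 kb of a TSS went from 23.6% to 32.1% in these members. In replicate 2 the CpG island-like share was lower in members than in shared peaks of every strength, from 3.73% against 10.8% to 1.36% against 2.61%. When peaks with a −log10 p down to 3 were let in, the binomial odds ratio of a TSS in replicate 1 was 0.969 (adjusted p = 0.389), those of ETS and CTCF fell below 1 (0.869 and 0.817), and that of CpG island-like sequence was 1.156. At 10 and above, the CpG island-like odds ratio of replicate 1 was 5.21 and the TSS odds ratio 2.38. None of the 9 members at 20 and above lay within 1 kb of a TSS, against 12.97% of shared peaks of that strength.

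**Figure D4:**
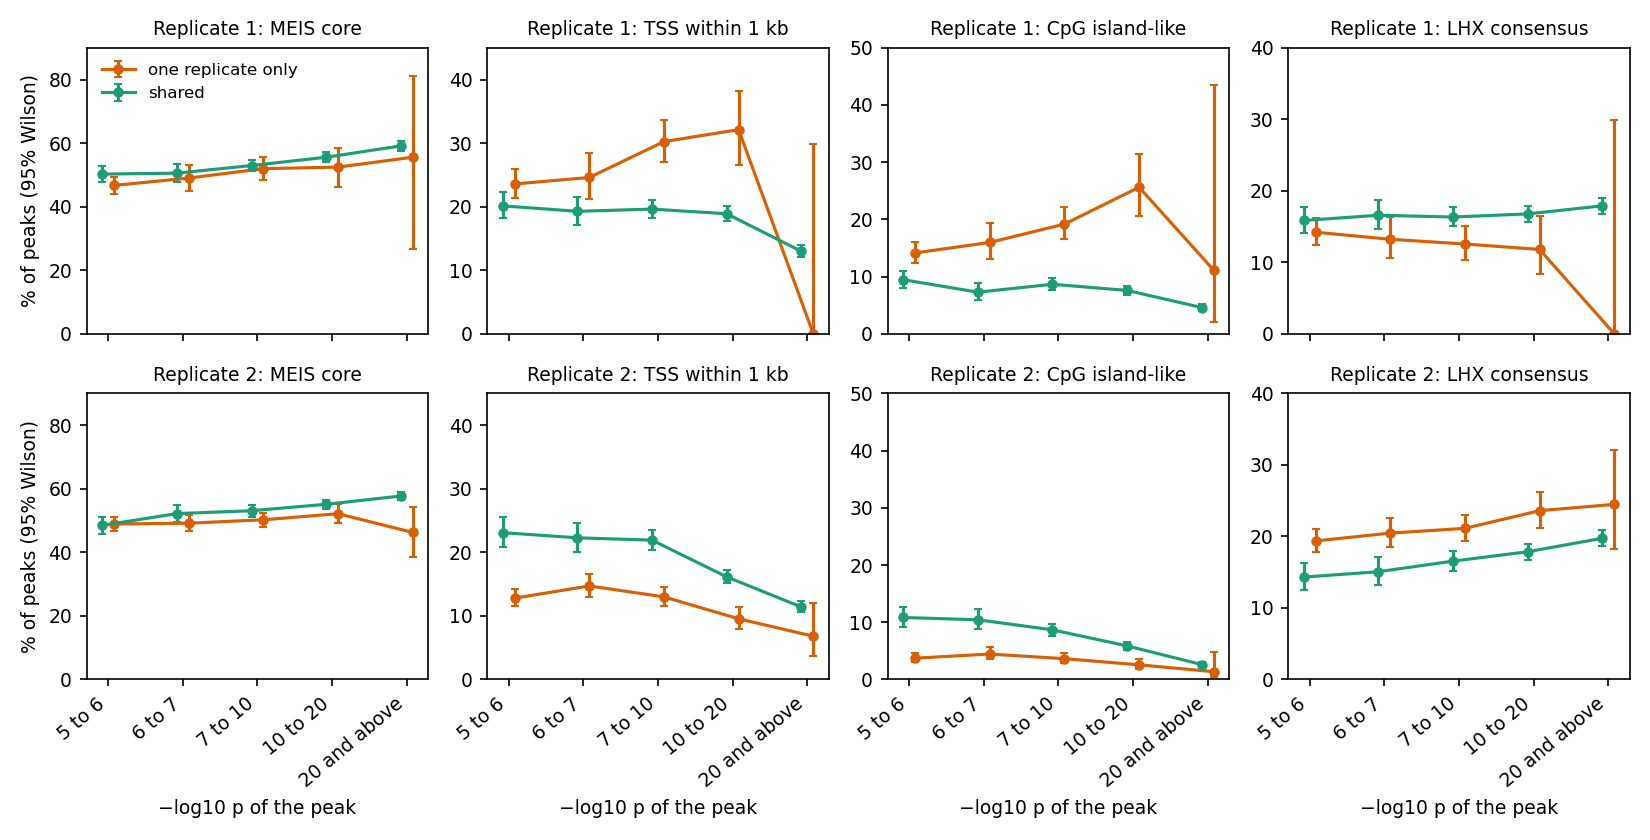
Share of peaks with TGACAG (MEIS core), with a TSS within 1 kb, with CpG island-like sequence and with TAATTA (LHX consensus), as % with 95% Wilson intervals, by −log10 p of the peak, for replicate 1 (top) and replicate 2 (bottom), one-replicate peaks in orange and shared peaks in green. In replicate 1 the orange CpG island-like points climb to 25.6% at 10 to 20 and its last point rests on 9 peaks, while in replicate 2 the orange points stay below the green ones.

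By chromosome, the share of one-replicate peaks tended to rise with GC content in replicate 1 and to fall, less closely, in replicate 2. In replicate 1 it ran from 12.0% on chromosome 18 to 26.0% on GC-rich chromosome 19 (89 of 342 peaks). Chromosome 19 had the lowest share in replicate 2, 24.2% (82 of 339). GC-rich chromosomes 17 and 20 had 32.7% and 31.7% there, close to the 31.7% of all replicate 2 peaks of that strength. Across 23 chromosomes, which share each library, the share went with chromosome GC content at a Spearman correlation of 0.746 in replicate 1 and −0.484 in replicate 2, given as descriptions.

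**Figure D5:**
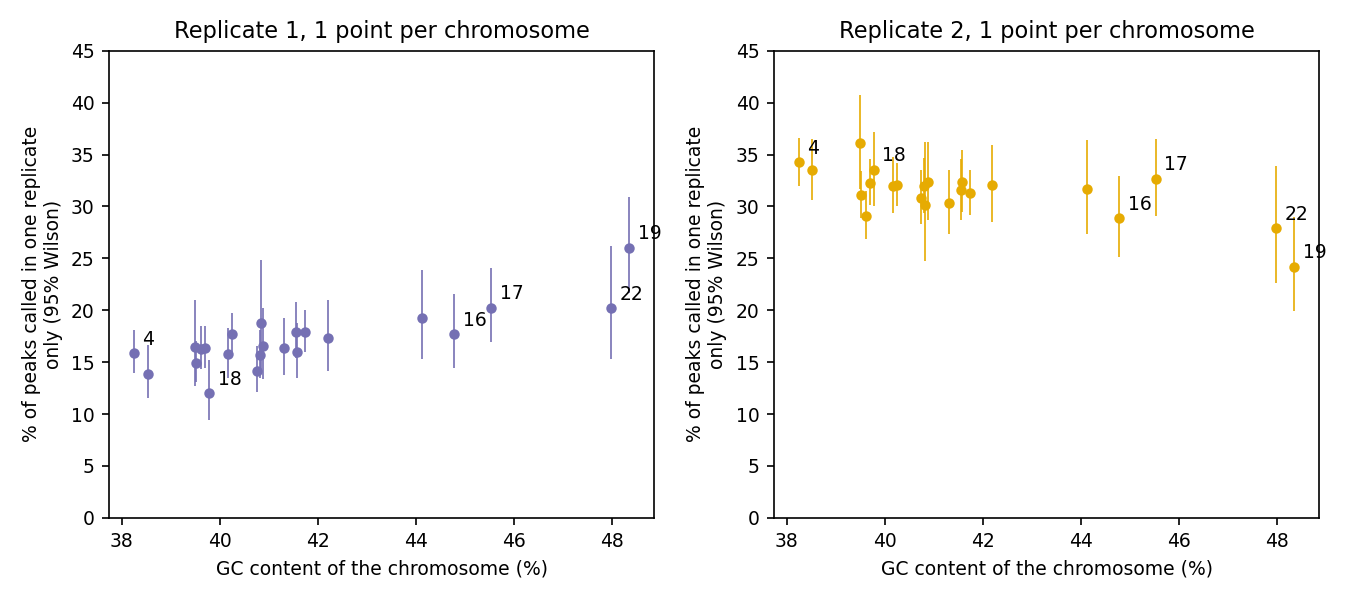
Share of peaks called in one replicate only (vertical axis, %, bars 95% Wilson intervals) against the GC content of each of 23 chromosomes (horizontal axis), replicate 1 at left and replicate 2 at right. Chromosome 19 is the highest point at left (26.0%) and the lowest at right (24.2%).

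Short tandem repeats, with a unit of at most 6 bp, and assembly gaps touched few members. A tandem repeat of at least 20 bp lay in 3.07% of replicate 1 members against 3.21% of shared peaks (binomial odds ratio 0.955, 0.757 to 1.204, adjusted p = 0.737) and in 3.86% against 3.31% in replicate 2 (1.17, 1.01 to 1.36, adjusted p = 0.0625). Other kinds of repeat were not counted. The search found no such repeat in the strongest replicate 1 member, near SHCBP1, although ATTCC occurs 6 times in the 120 bp at its summit. These shares therefore do not measure repeats or satellite DNA in general. A gap of the reference lay within 100 kb of 1.61% of replicate 1 members against 0.765% (binomial odds ratio 2.12, 1.50 to 2.99, adjusted p = 4.8e-05) and of 0.895% against 0.771% in replicate 2 (adjusted p = 0.41). At a −log10 p of at least 10 it was 3.14% against 0.825% in replicate 1 (binomial odds ratio 3.90, adjusted p = 0.0019). In replicate 2 it was 1.17% against 0.718% at that strength (binomial odds ratio 1.64, adjusted p = 0.149). Without any peak within 100 kb of a gap, the TSS and CpG island-like odds ratios were 1.70 and 2.67 in replicate 1. They were 0.720 and 0.581 in replicate 2.

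The strongest members differed between the replicates in fold and place. The first of replicate 1, at chr16:46391333-46392236, had a −log10 p of 79.3 with a fold of only 1.51, and lay 5.85 kb from an assembly gap and 264 kb from the nearest canonical TSS, that of SHCBP1. The 120 bp at its summit repeat the pentamer ATTCC, in capitals, 6 times, a unit known from satellite DNA. The first of replicate 2, 104 kb upstream of IKBKE, had a −log10 p of 99.9 and a fold of 24.5, lay 57.5 kb from a gap and 56.1 kb from any replicate 1 peak, and held neither that pentamer in its 120 bp nor TGACAG in its window.
SHCBP1, chr16:46391589-46391708, plus strand: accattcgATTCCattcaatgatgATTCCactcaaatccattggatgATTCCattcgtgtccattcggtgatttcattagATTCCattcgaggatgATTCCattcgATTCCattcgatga
IKBKE, chr1:206539639-206539758, plus strand: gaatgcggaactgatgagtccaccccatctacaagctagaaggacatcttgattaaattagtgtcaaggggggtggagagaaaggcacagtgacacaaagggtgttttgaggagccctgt

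The others among the 10 strongest of replicate 1 had folds of 1.90 to 6.44. Those named lay 82.6 kb downstream of the TSS of SDHAF3 (fold 6.44) and in the FGFR3 and KDR introns shown above (5.79 and 5.53). Others lay 1329 kb upstream of SPIDR beside a gap (1.90), in intron 2 of LRRC4C (5.35) and 232 kb upstream of UNC5D (5.30). The last lay in intron 9 of MARCHF1 (5.13) and 25.8 kb upstream of TUBB2A, a tubulin gene (4.53). UNC5D encodes a receptor for netrins, which guide axons, and its peak had TGACAG 6 bp from its summit. LRRC4C encodes a synaptic ligand of netrin-G1, the product of NTNG1.

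The others among the 10 strongest of replicate 2 had folds of 4.07 to 17.7. A peak 1.82 kb from a gap on chromosome 21 had a −log10 p of 70.0 and the lowest of these folds, 4.07. The rest included peaks 262 kb from the TSS of HACE1 (fold 17.7), in intron 5 of AOPEP (17.6) and 422 kb from NBAS (14.2). Others lay 82.2 kb from SPATA13 (13.7), 21.7 kb upstream of DLX1 in exon 3 of METAP1D (14.1) and in intron 7 of STN1 (13.5). The last lay 1017 kb upstream of TMPRSS15 (11.6) and 281 kb upstream of ALCAM (12.98). DLX1 is a homeobox gene of forebrain interneurons, and ALCAM encodes an adhesion molecule of axons. Of these 10, 5 held TGACAG, as did 5 of the 10 of replicate 1.

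The peaks were next assigned to the gene with the nearest canonical TSS and counted in 6 gene lists, as descriptions. TALE homeobox genes, the family of MEIS itself, were nearest to 7 members of replicate 1 (0.244%) and 74 shared peaks (0.515%), and to 23 members of replicate 2 (0.327%) and 80 shared peaks (0.527%). The strongest of replicate 1 was at the promoter of PKNOX1, a relative of MEIS, 62 bp downstream of its TSS in exon 1. It had a fold of 4.23, a GC content of 77.8% and TGACAG 49 bp from its summit. The nearest replicate 2 peak lay 105 kb away. PBX3 and PKNOX2 followed with intronic peaks of folds 2.77 and 2.64. In replicate 2 the strongest were in an intron of DLGAP1, 104 kb from TGIF1 (fold 5.18), in intron 9 of MEIS2 (5.49) and 294 kb from IRX1 (5.78).

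Regulators and markers of neural stem cells, 41 genes, were nearest to 0.873% of replicate 1 members against 2.15% of shared peaks, and to 1.90% of replicate 2 members against 2.21%. The strongest of replicate 1 lay 425 kb upstream of DACH1, a regulator of progenitors (fold 3.80). The next lay 33.1 kb upstream of MSI1, an RNA-binding stem cell marker (3.38), and 361 kb downstream of SOX9 (3.27). In replicate 2 the strongest lay 33.2 kb downstream of the TSS of NR2F2, a nuclear receptor of brain patterning, with a fold of 11.3, a −log10 p of 34.7 and TGACAG 19 bp from its summit, and a replicate 1 peak lay 73 bp from it without overlap. SOX6 had an intronic peak of fold 7.98, and a second NR2F2 peak, 416 kb away, had a fold of 8.59.

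Axon guidance genes, 37 in all, were nearest to 1.05% of replicate 1 members against 1.95% of shared peaks, and to 1.63% of replicate 2 members against 1.964%. Besides UNC5D, the strongest of replicate 1 lay in introns of SEMA3C, a semaphorin (fold 3.63), and of EFNA5, an ephrin (3.87), and those of replicate 2 lay far from their nearest TSS, 427 kb from EPHA5, an ephrin receptor gene (fold 8.49), 472 kb from SEMA3D (6.86) and 706 kb from RGMB (7.20). Synaptic adhesion genes, 39 in all, were nearest to 1.71% of replicate 1 members against 1.996% and to 2.499% of replicate 2 members against 2.01%. Here LRRC4C and LRRTM4, a postsynaptic adhesion gene (fold 3.74), were among the strongest in replicate 1, and in replicate 2 TENM3 (9.60) came first with ADGRL2 (8.90) and ADGRL3 (7.81), which encode latrophilins, at distances of 1050 kb, 964 kb and 999.97 kb from the TSS.

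Ribosomal protein genes, 79 housekeeping genes with CpG-rich promoters, were nearest to 13 members of replicate 1 (0.454%) and 34 shared peaks (0.236%), and 8 of those 13 members and 9 of the 34 shared peaks lay within 1 kb of the TSS. The strongest were at RPL21, 175 bp upstream of the TSS (fold 3.56), RPS18 and RPL35 (3.23 each). In replicate 2 they were nearest to 11 members (0.156%) and 33 shared peaks (0.217%), with 2 of the 11 members and 8 of the 33 shared peaks within 1 kb of the TSS, and the strongest, near RPS29, lay 593 kb from it. Candidate genes of restless legs syndrome, 9 in all, were nearest to 8 members of replicate 1 (0.279% against 0.355% of shared peaks) and to 22 of replicate 2 (0.312% against 0.362%), and BTBD9 (fold 3.50) and TOX3 (6.20) were among the strongest.

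The loci the study looked at are given by counts, to be read against the 16.6% and 31.7% of all peaks of this strength that were members. Within 500 kb of the gene body, MEIS1 had 1 member in each replicate, beside 8 and 9 shared peaks, and MEIS2 had 3 in each, beside 10 and 11. The MEIS1 member of replicate 1 lay 144 kb downstream of the TSS (fold 2.38, TGACAG 17 bp from its summit), and that of replicate 2 in intron 8 (3.82, no TGACAG in its window). MDGA1, a synaptic adhesion gene, had 3 members in each replicate beside 7 and 10 shared peaks, and NTNG1 had 6 and 5 beside 13 in each. DACH1 had 2 in replicate 1 and 6 in replicate 2, beside 17 and 19. The strongest at these loci in replicate 1 was the one upstream of DACH1, with a −log10 p of 12.0, and in replicate 2 a peak 87.0 kb upstream of PRMT6 at the NTNG1 locus, with a −log10 p of 17.4, a fold of 6.42 and TGACAG 3 bp from its summit.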

How the data were processed

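MEIS ChIP-seq peak lists of 2 hNSC libraries were analysed, with samples grouped by their titles. Per the labels, reads were 36 bp paired-end. The submitters' processing notes name cutadapt 1.16, Bowtie2 2.3.0, SAMtools 1.2, Picard 2.15.0 and MACS2, whose version was not given, with GRCh37. The authors removed duplicates and alignments of mapping quality under 30, and called peaks in each replicate against input at a p-value of 0.01. The deposited lists give −log10 p and −log10 q values and, as a linear ratio, the fold enrichment at the summit. The names of the peaks carry different input tags in the 2 lists. The deposited list of reproducible sites, made with IDR 2.0.3, holds the authors' scaled IDR score, and only overlap with its regions was used here. Its 8 columns of per-replicate values were not used. Depth, and which of the study's wash protocols each replicate had, are not given in the sources used here, and intervals cover the number of peaks only. Mapping filters remove reads from near-identical repeats.

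From these, peaks were overlapped (1 bp minimum) and annotated with GENCODE 44 on GRCh37, a TSS being the first base of any transcript unless called canonical. The summit's 500 bp were searched on both strands for 18 consensuses, and the PBX-MEIS composite is named by its factors. Features were tested with logistic regression (statsmodels 0.14.6, Wald, two-sided, no covariate), which was tested on simulated data. Strength as a covariate, other thresholds, overlap rules and windows were alternatives. GC content as a covariate for features other than TGACAG, leaving out peaks near assembly gaps and the direct comparison of the members of both replicates were chosen after seeing the data. The members, gene lists and features were chosen with earlier results of these data known. Named peaks are the 10 strongest per replicate, the 5 strongest with TGACAG, the 3 on each side of the threshold, those within 500 kb of MEIS1, MEIS2, MDGA1, NTNG1 and DACH1, and the 3 strongest per gene list. A few peaks that this rule names are not reported here.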

Additional observations from a re-analysis of the deposited data

Results flagged for a closer look

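In 6 features, the members of the 2 replicates differed from their shared peaks in opposite directions, and the interaction of replicate and membership in the logistic fit had an adjusted p under 0.05 for each. The ratio of the replicate 1 odds ratio to that of replicate 2 was 4.53 for CpG island-like sequence, 2.32 for a TSS within 1 kb, 2.46 for the GC box, 2.01 for the ETS consensus, 1.54 for the CTCF core and 0.618 for TAATTA. These features are not independent, since CpG island-like sequence and the GC box, ETS and CTCF letters are all rich in G and C. TAATTA holds neither base, and a TSS is a position. Peaks shared by both lists enter both sides of the fit. For TGACAG the ratio in the binomial fit was 0.959 (95% interval 0.869 to 1.06, adjusted p = 0.526).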

How the results depend on the processing

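Of 98 values recomputed under alternatives, 83 kept their direction and side of the threshold or stayed within 1.5 times the count. The number of members was 12193 and 20297 (replicates 1 and 2) at a −log10 p of at least 3 and 255 and 1278 at 10, where fewer peaks remain. At 10, TGACAG in replicate 1 had a binomial odds ratio of 0.823 (adjusted p = 0.186) and 10 features differed there. At 3, the TSS odds ratio of replicate 1 was 0.969. With GC content as a covariate, 9 features differed in replicate 2. The tandem repeat odds ratio was unstable. In replicate 1 it was 1.41 at a −log10 p of at least 3 and 1.18 in 200 bp windows, and in replicate 2 it was 1.39 at 3, 0.960 at 10, 1.19 with no replicate 1 peak within 1 kb, 1.19 with shared partners of at least 5, and 0.999 for repeats of at least 40 bp. Why these values moved was not tested. Of the 6 opposite features, 6 still differed in opposite directions at an adjusted p under 0.05 at 10, 1 at 3, 5 with strength as a covariate and 1 of 5 further than 5 kb from any TSS. Of the 6 features lower in both replicates, 1 did so at 10, and all 5 that were fitted did so at 3. Without either replicate no peak can be called a member or shared, so no value without a replicate exists. No paired analysis was possible because there is a single condition and each replicate is compared within itself.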
